A study of Mus musculus with 3 samples.

Results

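Bone morphogenetic protein (BMP) ligands and the secreted proteins that bind them were followed in MC3T3-E1, a line of mouse preosteoblasts that was derived from the skull vault (calvaria). The set was chosen by name as 9 genes: the ligands Bmp2, Bmp4 and Bmp6, and the antagonists or modulators Sostdc1, Grem1, Bmper, Nog, Chrd and Fst. The choice was made with earlier results of these data known. All 9 had a probe set that the array annotation gives to them alone, 11 probe sets in all, out of 34945 with a single gene symbol. Sostdc1 and Fst had 2 probe sets each and the others 1. RNA was hybridised to 1 Affymetrix mouse expression array for each of 3 culture media, so there was no replicate, no test and no p-value. Precision is limited by that number of arrays.

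The first medium was osteogenic medium that also held the solvent dimethyl sulfoxide (DMSO) at 0.6%, and the second was osteogenic medium without it. The third was normal medium, MEM α with 10% fetal bovine serum, which the other two also contained. Osteogenic medium added 150 µM ascorbic acid 2-phosphate, a stable vitamin C, and 10 mM beta-glycerophosphate, a phosphate donor. Cells were kept at 37 °C for 3 days and labelled C57BL/6. They are 1 immortal line of fibroblast-like shape, and each medium is 1 array, so the effect of a medium and the deviation of a single culture or array cannot be told apart. Per the labels, alizarin red S staining of calcium deposits was stronger with 0.6% DMSO.

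BMPs are secreted dimers of the TGF-beta superfamily that bring type I and type II serine/threonine kinase receptors together. The type I receptor phosphorylates Smad1, Smad5 and Smad9, which enter the nucleus with Smad4 and switch on genes such as the Id genes. In bone, BMPs drive mesenchymal cells towards the osteoblast. Outside the cell they are held in check by antagonists, most of them cystine-knot or chordin-like proteins that cover the receptor-binding surface of the ligand.

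The deposited values were read as log2 from their range, and how they were normalized is not given. Their medians lay close together, at 3.54, 3.57 and 3.54 in osteogenic medium with DMSO, osteogenic medium and normal medium. Values under 3.54, the 50th percentile over all arrays and the floor used here, cannot be ranked, so they were raised to it before differences were taken. A change of at least 2-fold, a log2 difference of 1, was counted as a rise or fall. Of the 10 osteoblast markers, 7 had a usable probe set, and all 7 were above the floor on every array, among them Sp7, Alpl, Ibsp and Col1a1. Runx2, Bglap and Spp1 had no probe set with a single gene symbol and were not followed. None of the 4 adipocyte markers with a probe set was above it, nor were the myogenic factors Myod1 and Myog, the pan-leukocyte gene Ptprc or the endothelial genes Pecam1, Cdh5, Tek and Emcn. Of 5 markers each, 4 of cartilage (with Acan below), 2 of skeletal muscle (Des and Acta1), 2 of macrophages (Csf1r and Lyz2) and 1 of endothelium (Kdr) were above it on at least 1 array. The signal of Actb at its 3' end exceeded that at its 5' end by 0.18, 0.20 and 0.27 on the log2 scale in the same order of media, which speaks to RNA integrity. The hybridisation spikes, added in fixed amounts, have 18 probe sets. Their median difference was 0.10 for osteogenic minus normal medium, with a range of 0 to 0.29, and -0.03 for DMSO within osteogenic medium. Several differences of the members between osteogenic and normal medium were of that size, and the part of the spikes' difference in them was not tested.

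The sequences just upstream of Bmp4, Bmper and Grem1 are shown as the measured genes with unequal values for which a RefSeq promoter was found: the ligand and the antagonist that were higher with DMSO, and 1 of the antagonists that were lower. RefSeq promoters were found for 5 of the 9 genes, these 3, Bmp6 and Chrd. None was found for Bmp2, Sostdc1, Nog and Fst, so the promoter of Sostdc1, which moved most, is not among them. Each line gives the 250 bases before the annotated start of transcription in GRCm38.p6, 5′ to 3′ on the strand of the gene. Capitals mark matches on either strand to the GC box GGGCGG, to GGCGCC, a GC-rich motif bound by BMP-activated Smads, to the CCAAT box, to the TATA box TATAAA and its variant TTTAAA, and to the E box CACGTG. No searched motif overlapped another in these 3 promoters.
Bmp4, chr14:46390670-46390919, minus strand: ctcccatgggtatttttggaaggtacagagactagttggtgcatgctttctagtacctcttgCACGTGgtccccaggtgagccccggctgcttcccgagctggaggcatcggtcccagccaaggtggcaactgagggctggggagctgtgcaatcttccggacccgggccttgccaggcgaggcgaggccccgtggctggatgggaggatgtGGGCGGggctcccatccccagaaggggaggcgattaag
Bmper, chr9:23222826-23223075, plus strand: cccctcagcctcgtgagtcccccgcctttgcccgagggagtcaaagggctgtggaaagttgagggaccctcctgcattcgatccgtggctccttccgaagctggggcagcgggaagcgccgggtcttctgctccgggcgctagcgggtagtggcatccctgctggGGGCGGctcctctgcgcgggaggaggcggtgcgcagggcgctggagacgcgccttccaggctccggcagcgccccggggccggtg
Grem1, chr2:113758649-113758898, minus strand: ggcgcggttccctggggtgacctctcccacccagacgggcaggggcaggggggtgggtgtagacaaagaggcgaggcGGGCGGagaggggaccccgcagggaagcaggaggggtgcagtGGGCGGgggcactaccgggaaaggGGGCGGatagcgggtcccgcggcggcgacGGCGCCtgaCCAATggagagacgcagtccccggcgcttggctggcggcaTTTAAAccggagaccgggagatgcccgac

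The Grem1 promoter held 3 GC boxes, a GGCGCC 78 to 73 bases before the start, a CCAAT 69 to 65 bases before it and a TTTAAA 29 to 24 bases before it. Bmp4 and Bmper each held 1 GC box, and Bmp4 an E box 188 to 183 bases before its start. Of the promoters not printed, that of Chrd held 4 GC boxes and 1 GGCGCC motif, and that of Bmp6 held 1 GC box and 1 E box. Of 27025 promoters of the same length, 1 per gene, 32.9% held a GC box, 9.54% the GGCGCC motif, 34.5% a CCAAT box, 13.0% a TATA box, 12.1% its variant TTTAAA and 6.05% this E box. The 3 promoters were 63.2%, 71.6% and 72.0% G and C for Bmp4, Bmper and Grem1, against a median of 52.0% over all. A match is a run of letters and was not measured as a binding site.

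The values are from whole cultures, in which fewer cells making an mRNA and less of it per cell cannot be told apart. Among the ligands, Bmp4, which osteoblasts make and respond to, had a log2 value of 8.81 in osteogenic medium with DMSO, 8.29 in osteogenic medium and 8.07 in normal medium. It was highest with DMSO and lowest in normal medium. The difference was 0.22 for osteogenic against normal medium, inside the range of the spikes, and 0.52, or 1.43-fold, for DMSO within osteogenic medium. Over both steps Bmp4 was 1.67-fold higher in osteogenic medium with DMSO than in normal medium. No step reached 2-fold. A difference of 0.52 or more with DMSO was seen in 85 of the 20266 named probe sets above the floor on at least 1 of both arrays, or 0.419%.

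Bmp2, the most widely used osteogenic BMP, had values of 1.04, 1.22 and 1.22 in osteogenic medium with DMSO, osteogenic medium and normal medium. All lay under the floor, so Bmp2 was not measurable with its single probe set. Bmp6, a ligand known from bone and from iron regulation, was listed at 1.75 on all 3 arrays, also under the floor. That value was shared exactly by 1839, 1833 and 1724 probe sets of the arrays in the same order, a sign of how coarse the deposited values are at the low end. No statement on the absence of either mRNA can be made from this.

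**Figure D1:**
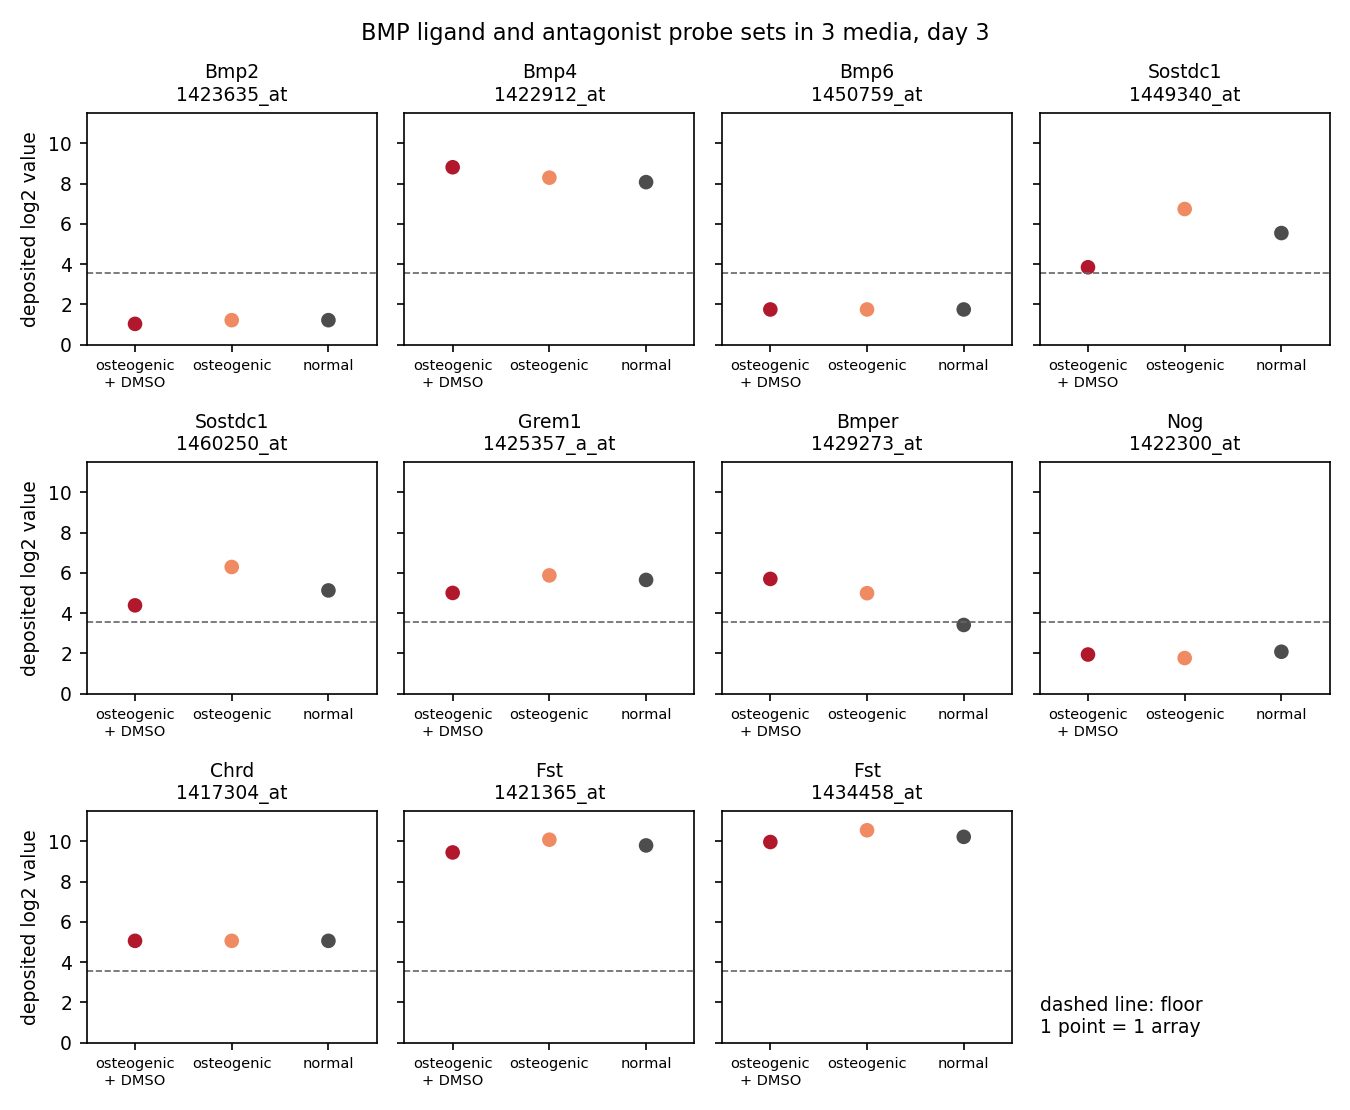
Deposited log2 value (vertical axis) of each of the 11 probe sets in osteogenic medium with DMSO, osteogenic medium and normal medium (left to right), 1 point per array, with the floor of 3.54 as a dashed line. Both Sostdc1 probe sets were highest in osteogenic medium and lowest with DMSO, Bmper and Bmp4 were highest with DMSO, and Bmp2, Bmp6 and Nog stayed under the floor on all arrays.

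Among the antagonists, Sostdc1 moved most. It encodes a secreted cystine-knot protein, also called ectodin or USAG-1, that binds BMPs and also acts on Wnt signalling through LRP coreceptors, and it is best known from teeth and kidney. Its probe set 1449340_at had log2 values of 3.85 in osteogenic medium with DMSO, 6.74 in osteogenic medium and 5.54 in normal medium. Probe set 1460250_at, annotated from the same cDNA, had 4.39, 6.29 and 5.13 in that order. Both were highest in osteogenic medium and lowest with DMSO, and with DMSO they lay below their level in normal medium.

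Sostdc1 rose in osteogenic against normal medium by 1.19 and 1.16 on the log2 scale, 2.29-fold and 2.24-fold, so its probe sets differed by 0.03. In normal medium the exact value of 1449340_at stood at 69 probe sets of that array and that of 1460250_at at 74. In osteogenic medium the value of 1460250_at stood at 25. How far such ties limit the agreement of the probe sets was not tested. With DMSO Sostdc1 fell, with differences of -2.89 and -1.90, which are 7.41-fold and 3.74-fold lower than in osteogenic medium alone. Of the 20266 named probe sets above the floor, 2, counting Sostdc1 itself, fell as far as the first and 11 as far as the second. The size of the fall was less sure than its direction. The gap of 0.99 between the probe sets was matched or exceeded by 0.0772% of 5183 genes with 2 measured probe sets, whose median gap was 0.07. The 1449340_at value with DMSO was close to the floor, and with the floor at the 60th percentile its difference was -2.26, as a bound. Averaged over both probe sets, Sostdc1 was 5.27-fold lower with DMSO. Against normal medium, osteogenic medium with DMSO gave differences of -1.70 and -0.74, of which the first alone reached 2-fold.

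Grem1 encodes gremlin 1, a cystine-knot antagonist of BMP2, BMP4 and BMP7 that restrains osteoblast differentiation in mice. It had log2 values of 5.00 in osteogenic medium with DMSO, 5.87 in osteogenic medium and 5.65 in normal medium. Like Sostdc1 it was highest in osteogenic medium and lowest with DMSO, over a smaller range. The differences were 0.23 for osteogenic against normal medium and -0.87 for DMSO within osteogenic medium, 1.83-fold lower and short of the 2-fold threshold. A difference of -0.87 or lower was seen in 159 probe sets, or 0.785%. Against normal medium, osteogenic medium with DMSO was at -0.65. The exact Grem1 value in osteogenic medium stood at 40 probe sets of that array.

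Fst encodes follistatin, which binds activins tightly and several BMPs more weakly. Its probe set 1434458_at had log2 values of 9.96 in osteogenic medium with DMSO, 10.54 in osteogenic medium and 10.22 in normal medium. Probe set 1421365_at had 9.44, 10.08 and 9.79. Both probe sets were highest in osteogenic medium and lowest with DMSO, the same order as for Sostdc1 and Grem1. The differences were 0.33 and 0.28 for osteogenic against normal medium, close to the top of the spikes' range, and -0.58 and -0.63 for DMSO within osteogenic medium. The probe sets of Fst thus lay within 0.05 of each other in both comparisons, and their mean with DMSO was 1.52-fold lower.

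Bmper went the other way with DMSO. It encodes the BMP-binding endothelial regulator, also called crossveinless-2, a chordin-like protein that can either hold BMP4 back or aid it, depending on its amount. It had log2 values of 5.70 in osteogenic medium with DMSO, 4.99 in osteogenic medium and 3.41 in normal medium, the last under the floor. The value was highest with DMSO and lowest in normal medium, as for Bmp4. In osteogenic medium Bmper was at least 2.73-fold higher than in normal medium. With DMSO it was higher by 0.71, or 1.63-fold, short of 2-fold, a difference that 30 probe sets, or 0.148%, reached or passed. Osteogenic medium with DMSO stood at least 4.46-fold above normal medium. Bmper counted as risen in the first comparison through its level in osteogenic medium alone, and with the floor at the 60th percentile its bound there was 0.51 on the log2 scale and no longer a 2-fold rise.

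Chrd, which encodes chordin, a BMP antagonist that patterns the early embryo, was listed at 5.06 on all 3 arrays to every deposited digit. The same value stood at 135, 120 and 106 probe sets on the arrays of osteogenic medium with DMSO, osteogenic medium and normal medium. Of all named probe sets, those under the floor included, 34.1% were equal on all 3 arrays. The share among probe sets above the floor, as that of Chrd is, was not counted. An exact tie of this kind says little about how much chordin mRNA varied. Nog, which encodes noggin, a BMP-induced antagonist that blocks both receptor sites of its ligands, had 1.95, 1.77 and 2.08, all under the floor, and was not measurable.

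**Figure D2:**
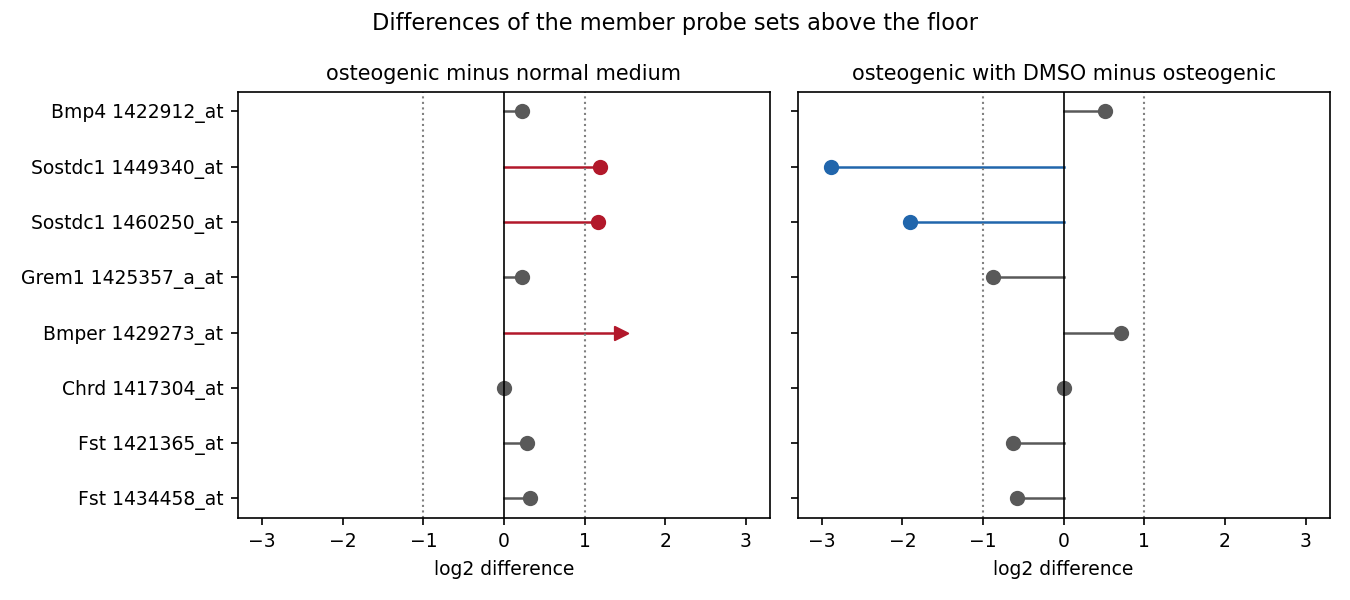
Log2 difference (horizontal axis) of the 8 probe sets above the floor on at least 1 array, for osteogenic minus normal medium (left) and osteogenic with DMSO minus osteogenic medium (right). Red marks a rise and blue a fall of at least 2-fold (dotted lines), the triangle is a lower bound, and Chrd is at exactly 0. All but Chrd lie right of 0 on the left, and on the right Bmp4 and Bmper lie right of 0 and Sostdc1, Grem1 and Fst left of it.

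Counted over all 11 probe sets, 3 rose at least 2-fold in osteogenic against normal medium, both of Sostdc1 and that of Bmper, and 0 fell. Over all 34945 named probe sets 0.217% rose and 0.0887% fell by the same rule. In all, 7 of the 11 were above 0, none was below and 4 were exactly equal after the floor, of which 3 were not measurable. Their median difference was 0.23, against 0.00 over all named probe sets, of which 19.6% were above 0, 22.6% below and 57.8% equal. The 11 probe sets come from 9 genes, and probe sets of a gene are not independent. The genes were also chosen with earlier results of these data known. Their counts beside the shares of all probe sets, here and with DMSO, are therefore a description and not a test.

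With DMSO in osteogenic medium, 2 of the 11 fell at least 2-fold, both of Sostdc1, and 0 rose, while 0.272% of all named probe sets fell and 0.0229% rose. Here 2 were above 0, 5 below and 4 equal, while of all named probe sets 22.1% were above 0, 17.4% below and 60.5% equal. The median was 0.00 for the members and for all. By the looser rule of 1.5-fold, 4 were lower, the Sostdc1 probe sets, Grem1 and 1 of the Fst probe sets, against a background of 1.06%, and 1 was higher, Bmper, against 0.177%. The second Fst probe set, at -0.58 on the log2 scale, lay just short of that threshold. For osteogenic medium with DMSO against normal medium, which is the sum of both steps, Bmper rose and 1 Sostdc1 probe set fell, against 0.278% and 0.695%. The array of osteogenic medium is in both main comparisons with opposite signs, so any deviation of that array enters them in opposite directions. Sostdc1, Grem1 and Fst, all highest on that array, had no second array to compare with. For Sostdc1 and Fst both probe sets had the same order of media, but they were read from the same RNA.

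**Figure D3:**
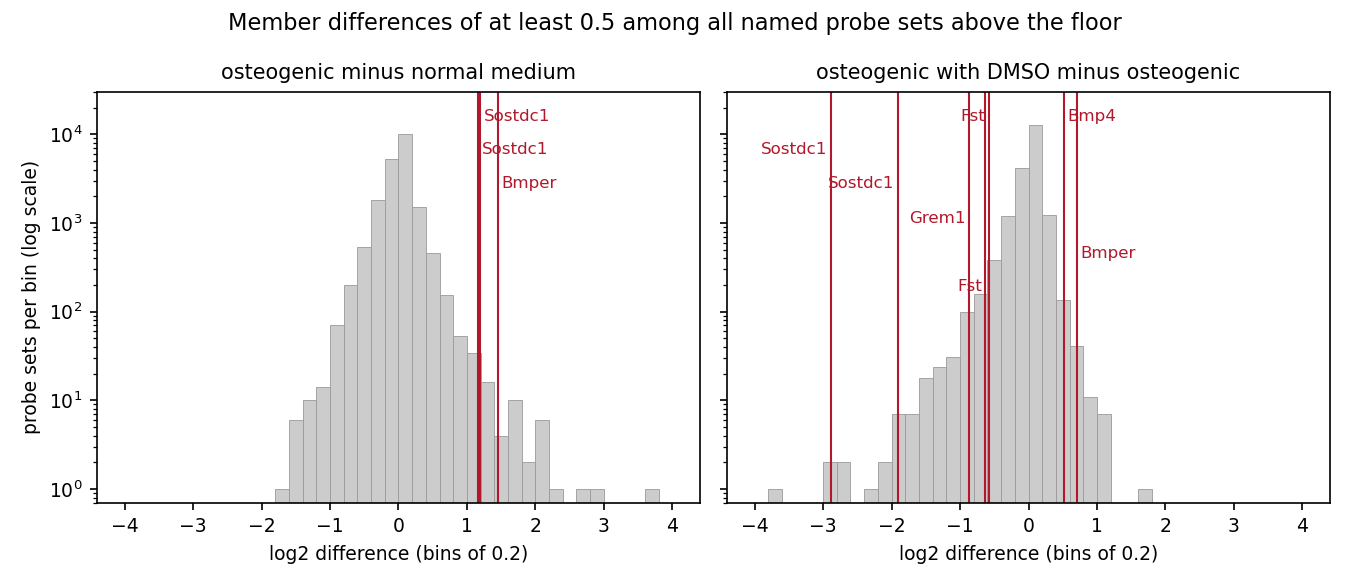
Number of named probe sets above the floor (vertical axis, log scale) by log2 difference in bins of 0.2, for osteogenic minus normal medium (left) and osteogenic with DMSO minus osteogenic medium (right), with red lines at the members that differed by at least 0.5. On the left the lines are Sostdc1 (1.16 and 1.19) and Bmper (1.45, a bound), and on the right Sostdc1 (-2.89 and -1.90) lies in the far lower tail.

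The genes whose values over the 3 arrays ran most like those of a member were sought by the distance between the centred log2 values. With only 3 arrays, this describes a shape and many genes can come close. Genes whose symbols are only clone or locus numbers were left out of the search and of the gene counts given with it. For Sostdc1 (1449340_at), among 10796 genes above the floor on all arrays, the nearest was Dmp1, an acidic bone matrix protein, at a distance of 0.06, with differences of 1.17 in osteogenic against normal medium and -2.81 with DMSO. The next were Otor, Cnmd, F13a1 and Iqgap2, at distances of 0.72 to 0.91. The close match to Dmp1 held for that probe set alone. From the other Sostdc1 probe set, 1460250_at, a comparison added after seeing the data, Dmp1 lay at 0.74 and ranked 29 among 10795 genes, and Otor, at 0.37, was the nearest. For Grem1 the nearest were Evi2a, Unc13c, Etv5, a transcription factor downstream of FGF signals, Ccn2, the connective tissue growth factor, and Cp, which encodes ceruloplasmin, at distances of 0.03 to 0.06. Ccn2 was at 0.19 in osteogenic against normal medium and -0.78 with DMSO. For Bmper, with its value in normal medium at the floor, the nearest of 11029 genes were Notum, a secreted inhibitor of Wnt proteins, Sgms2, Tubb3, Ramp1 and Alpl, the alkaline phosphatase of mineralizing cells, at distances of 0.15 to 0.21. Alpl was at 1.70 in osteogenic against normal medium and 0.71 with DMSO.

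Other genes of the pathway were taken from lists that were chosen with earlier results of these data known. Each gene was represented by its probe set of highest mean value. Over all 18193 genes by the same rule, 0.297% rose and 0.115% fell in osteogenic against normal medium, 0.033% rose and 0.346% fell with DMSO, and the median difference was 0.00 in both. Of 11 other BMP and GDF ligands with a probe set, 5 were above the floor, Bmp7 among them, and none changed 2-fold. The largest differences of that list were 0.14 for Bmp8b and 0.11 for Gdf2 with DMSO, and 0.10 for Bmp10 in osteogenic against normal medium. Bmp7, a ligand of bone and kidney, was listed at 4.06 on all 3 arrays.

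The list of other antagonists and modulators had 18 genes with a probe set, 13 of them above the floor. In osteogenic against normal medium 1 rose, Bambi, which is a membrane decoy receptor and not secreted, by 1.13, and 0 fell. With DMSO 0 changed 2-fold. Bambi had 6.55 in osteogenic medium with DMSO, 6.00 in osteogenic medium and 4.87 in normal medium. Smoc2, a calcium-binding matrix protein, had 5.83, 5.13 and 4.43, with differences of 0.70 at each step, and its other probe set differed by 0.43 and 0.57. Nbl1, the DAN protein, was at -0.67 in osteogenic medium. Chrdl1, chordin-like 1, was at -0.39 in osteogenic against normal medium and at 0.50 with DMSO, and its other measured probe sets had the same signs, the reverse order of the Sostdc1, Grem1 and Fst values. Sost, the bone antagonist sclerostin, was under the floor. The median of the list was 0.00 in both comparisons, with genes under the floor counted as 0. Over the 13 genes above the floor it was -0.14 in osteogenic against normal medium and 0.00 with DMSO. In osteogenic against normal medium 3 genes of the list were above 0 and 7 below.

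Of the 15 receptor and coreceptor genes, 12 were above the floor and 0 changed 2-fold in either main comparison. The type I receptor Bmpr1a and the type II receptor Bmpr2 were at -0.07 and -0.02 in osteogenic against normal medium, with the 3 other measured probe sets of Bmpr1a at -0.45 to -0.07. With DMSO they were at 0.01 and 0.02, with those of Bmpr1a at 0.00 to 0.24. Lrp4, a coreceptor that binds Sostdc1 and sclerostin, was higher by 0.75 in osteogenic medium and by a further 0.40 with DMSO, with 6.94, 6.53 and 5.79 in osteogenic medium with DMSO, osteogenic medium and normal medium. Tgfbr3, or betaglycan, was at -0.28 and -0.47, Acvr2a, an activin and BMP receptor, at -0.42 and 0.00, and Lrp5, a Wnt coreceptor, at -0.14 and -0.25. The other measured probe set of Acvr2a was at -0.10 and 0.10. Lrp5 had 3.77 in osteogenic medium with DMSO, 4.02 in osteogenic medium and 4.16 in normal medium, all close to the floor. Of the 8 Smad and Smurf genes, 7 were above the floor and 0 changed 2-fold. Smad1 was at 0.25 and 0.37, the inhibitory Smad7 at 0.36 and -0.06, and the ubiquitin ligases Smurf1 and Smurf2 at -0.27 and -0.13 in osteogenic medium and 0.11 and 0.05 with DMSO.

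Of the 16 target genes with a probe set, all above the floor, 3 rose in osteogenic against normal medium, Tnfrsf11b (2.80), Dlx3 (1.41) and Bambi (1.13), and 0 fell, with a median of 0.21. Tnfrsf11b encodes osteoprotegerin, a decoy receptor that restrains osteoclasts, and Dlx3 is a homeobox factor whose other probe set differed by 0.10. With DMSO 0 rose and 1 fell, Id4, at -1.83, and the median was 0.09. The Id genes encode inhibitors of helix-loop-helix factors and are direct Smad targets. Id1 was at 0.34 and 0.10, Id2 at 0.09 and 0.13, Id3 at 0.48 and 0.47, and Id4 at -0.71 and -1.83 in the 2 comparisons. Id4 thus had the opposite sign to Id1, Id2 and Id3 in both.

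**Figure D4:**
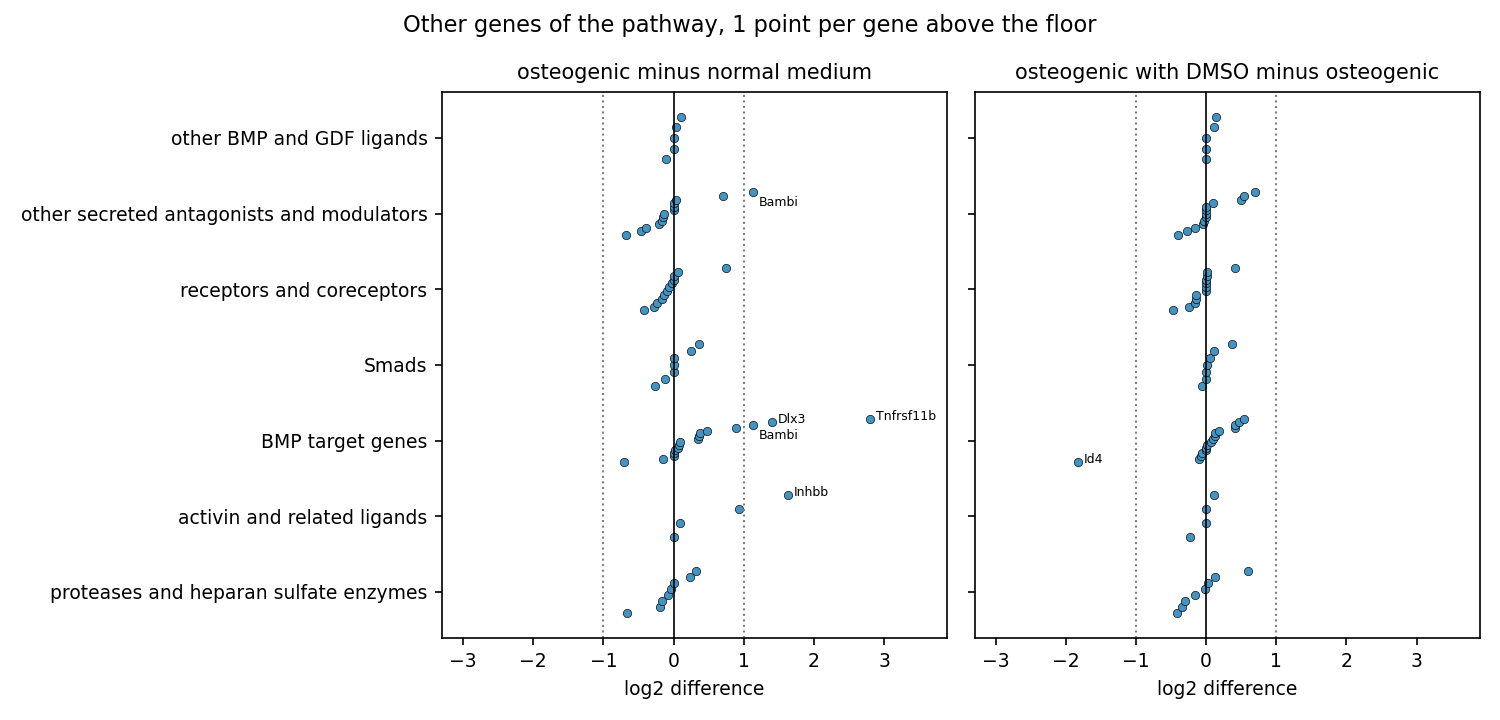
Log2 difference (horizontal axis) of each gene above the floor on at least 1 array in 7 pathway lists, 1 point per gene with its vertical place within a list set by rank, for osteogenic minus normal medium (left) and osteogenic with DMSO minus osteogenic medium (right). Dotted lines mark 2-fold and genes beyond them are named. Most points lie within 0.5 of 0, with Tnfrsf11b, Inhbb, Dlx3 and Bambi beyond 1 on the left and Id4 beyond -1 on the right.

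Cell type markers also differed between the arrays. Of the 7 osteoblast markers measured, 4 rose in osteogenic against normal medium with a median of 1.17, and 1 rose with DMSO, where 6 were above 0, 0 were below and the median was 0.39. With DMSO those 6 markers thus had the sign of Bmp4 and Bmper, and Sostdc1, Grem1 and Fst the opposite one. The remaining marker, Col1a2, was at 0.00, with its other measured probe sets at -0.45 to 0.04. The second Col1a1 probe set was at -0.01. Dmp1, a bone matrix gene outside the marker list, was at -2.81 with DMSO. Of the 4 cartilage markers above the floor, 0 changed 2-fold in either main comparison. Their median was 0.36 in osteogenic against normal medium, with Col2a1 at 0.85 and Matn3 at 0.67, and 0.01 with DMSO. The macrophage markers Lyz2 and Csf1r were at -0.39 and -0.25 in osteogenic against normal medium, and at -0.17 and 0.00 with DMSO. The part of these cell type markers in the differences of the BMP genes was not tested.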

How the data were processed

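The deposited table of the series holds 45101 probe sets on 3 arrays, and its values were read as log2 from their range of 0.652 to 13.4. How the authors summarised and normalized the probes, and the base of the log, is not given in the sources used here. Control probe sets were set aside, which left 45037, of which 34945 had a single gene symbol in the platform annotation of 2016. Entrez numbers and symbols of the 9 members matched the GRCm38.p6 gene table. Values were raised to a floor at the 50th percentile, and differences were taken between arrays. Where 1 array was at or below the floor the difference is a bound. Genes outside the set were named by a rule: up to 4 of each pathway list with the largest change, and the 5 nearest to Sostdc1, Grem1 and Bmper. A few list members were named beside them after their values were seen. The members and lists were chosen with earlier results of these data known. The calling step was checked on simulated arrays for osteogenic minus normal medium over 34945 probe sets. It called 100 of 100 probe sets raised and 100 of 100 lowered by 1.5 on the log2 scale, all far above the floor, and 0 of 34745 unchanged ones, which checks the arithmetic and says nothing of the spread between cultures. Alternatives were floors at the 40th and 60th percentile or none, quantile normalization, cyclic loess, median centring, a 1.5-fold threshold, leaving out probe sets whose names end in _s_at or _x_at, and counting genes. Python 3.11.15, numpy 2.4.6, pandas 2.3.3, matplotlib 3.10.9, R 4.3.3 and limma 3.58.1 were used.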

Additional observations from a re-analysis of the deposited data

How the results depend on the processing

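The count of members changed 2-fold in osteogenic against normal medium, 3 probe sets, was within 1.5 times its size under every alternative tried. With DMSO in osteogenic medium the 2 called probe sets became 5 at 1.5-fold and 1 when genes were counted. For osteogenic medium with DMSO against normal medium the 2 became 5 at 1.5-fold. Of the 33 probe set differences, 33 moved by less than the spread between probe sets of a gene (SD 0.19, 0.15 and 0.23 in the 3 comparisons) under quantile normalization, cyclic loess, median centring and the floor at the 40th percentile, 29 with the floor at the 60th percentile and 30 with no floor. With the floor at the 60th percentile, Bmper was at 0.51 in osteogenic against normal medium and at 1.22 over both steps, and Sostdc1 1449340_at at -2.26 with DMSO and -1.06 over both steps, as bounds that a higher floor shrinks. No floor gave differences to Nog and Bmp2, which lie under it. No difference reversed. The median difference over probe sets above the floor moved by at most 0.03 under any scaling. No paired analysis was possible because each group has 1 array. Signal near the floor limits Sostdc1 with DMSO and Bmper in normal medium.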

Other observations

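Follistatin also binds activins, and genes of that side of the superfamily were looked at in the same way. Of 6 activin and related ligand genes, 5 had a probe set and 4 were above the floor, and 1 rose in osteogenic against normal medium. It was Inhbb, a subunit of activin B, with a bound of at least 3.09-fold. The second probe set of Inhbb was at 0.23. Inhba, the subunit of activin A, had log2 values of 8.29 in osteogenic medium with DMSO, 8.52 in osteogenic medium and 7.58 in normal medium, so it was higher by 0.94 in osteogenic medium and at -0.23 with DMSO. Gdf11 was at 0.10 and 0.00 in the 2 comparisons.

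Among 10 genes of proteases and heparan sulfate enzymes that act on ligands or antagonists, 8 were above the floor and 0 changed 2-fold in either main comparison. Htra1, a secreted serine protease, had 9.63 in osteogenic medium with DMSO, 9.50 in osteogenic medium and 10.16 in normal medium, with -0.67 in osteogenic against normal medium. Its other probe set was at -0.63. Pcsk6, a proprotein convertase that matures TGF-beta family ligands, had 5.65, 5.06 and 5.06, with a difference of 0.60 with DMSO. Bmp1, the tolloid protease that cleaves chordin, was at 0.32 in osteogenic against normal medium, and its other measured probe set at 0.00. Htra3 and Sulf1 were at -0.42 and -0.34 with DMSO, and the other measured probe sets of Htra3 at -0.04 and 0.00. Sulf1 had 3.77 in osteogenic medium with DMSO, 4.11 in osteogenic medium and 3.87 in normal medium, all close to the floor.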
